A study of Mus musculus with 32 samples.

Results

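The eosinophil granule protein genes described here are Prg2, Prg3, Epx, Ear1, Ear2 and Ear6. They were chosen by gene symbol, and all 6 were found among the 55487 genes of the table. The RNA came from bone marrow of 8 mice, sorted for each mouse into 4 gates, which gave 32 libraries: LSK cells, which hold stem and multipotent cells, the common myeloid progenitor gate (CMP), the granulocyte-monocyte progenitor gate (GMP) and the gate of progenitors of megakaryocytes and erythroid cells (MEP). Cxadr ko mice, 4 in number, were Mx1-Cre+ Cxadrfl/fl, and the 4 control mice were Mx1-Cre- Cxadrfl/fl, so floxed alleles of Cxadr (a cell adhesion molecule) were shared by all 8. Mx1-Cre is driven by an interferon-inducible promoter and is not restricted to blood cells. The sources used here do not give how Cre was induced or the age of the mice.

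Eosinophils store a small set of toxic, mostly basic proteins in their granules and release them against parasites and in allergic inflammation. The main ones are major basic protein, eosinophil peroxidase and the eosinophil-associated ribonucleases. In mice the lineage branches off from granulocyte-monocyte progenitors by way of a precursor that carries the IL-5 receptor, and the granule genes are transcribed long before the granules are full. Prg2 encodes major basic protein, and Prg3 encodes its close homologue. Epx encodes eosinophil peroxidase, and Ear1, Ear2 and Ear6 encode members of the RNase A superfamily that are the mouse relatives of the human eosinophil cationic protein and eosinophil-derived neurotoxin.

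The libraries held 8313300 to 13641248 reads assigned to genes, and 1 read stood for 0.814 to 1.28 normalized counts, the unit used throughout. Cxadr itself was scarce and did not separate the genotypes. It averaged 17.2 ± 3.54 in GMP of Cxadr ko mice and 26.3 ± 11.9 in GMP of control mice, 6.10 ± 6.73 in MEP of Cxadr ko mice and 12.9 ± 9.97 in MEP of control mice (SD, n = 4 each). In LSK it was not lower in Cxadr ko mice, 30.5 ± 18.1 against 28.7 ± 14.7 in control mice, nor in CMP, 29.6 ± 12.0 in Cxadr ko mice and 23.5 ± 6.61 in control mice. Counts over the whole gene gave no check of the genotype labels, on which every genotype comparison here rests. The MEP gate lay close to the CMP gate, with 69 of 18475 genes called between them. The 12 erythroid genes summed in MEP to 3834 to 5452 in Cxadr ko mice and 4626 to 4979 in control mice. In CMP they summed to 3218 to 4243 and 3807 to 4136, and in LSK to 8888 to 10607 and 10630 to 13426, in the same order. MEP is thus used here as the name of the gate. Genes of late neutrophils varied strongly between single libraries, with the sum of 9 such genes between 3808 and 58938 in GMP of Cxadr ko mice and between 1695 and 21395 in GMP of control mice. By its identifier mouse 1 of either genotype stands apart from the rest of its group, and values are given without these mice where they change a result.

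Prg2 (ENSMUSG00000027073) lies on chromosome 2 at 84980461 to 84983632 on the plus strand of GRCm38 and is protein coding. In GMP it stood at 6098, 725, 746 and 822 normalized counts in Cxadr ko mice 1 to 4, against 2669, 2388, 1399 and 2219 in control mice 1 to 4. Of the 4 Cxadr ko libraries 3 were below the lowest control library and the remaining one, mouse 1, was above the highest. In LSK the values were 302, 10.9, 65.1 and 25.7 in Cxadr ko mice and 13.2, 1.80, 11.4 and 0.886 in control mice. In CMP they were 136, 2.98, 13.0 and 14.5 in Cxadr ko mice and 0.979, 5.07, 3.44 and 0 in control mice. Outside GMP, Cxadr ko mouse 1 was again the highest library of its gate, and 3 of the 4 Cxadr ko libraries were above the highest control library in LSK and likewise in CMP. In MEP the values were 77.6, 0, 9.37 and 0.850 in Cxadr ko mice and 0, 0.989, 23.3 and 4.30 in control mice, and the groups overlapped.

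Prg3 (ENSMUSG00000027072) is the downstream neighbour of Prg2 on the same strand of chromosome 2, at 84988215 to 84993886. In GMP it stood at 541, 198, 281 and 35.2 in Cxadr ko mice and at 401, 142, 238 and 585 in control mice. The groups overlapped, with Cxadr ko mouse 4 the lowest and control mouse 4 the highest of the 8. In LSK every library held a few reads, 7.48, 5.47, 8.61 and 9.25 in Cxadr ko mice and 3.29, 0.898, 9.77 and 1.77 in control mice. In CMP the values were 11.1, 0, 0 and 3.86 in Cxadr ko mice and 1.96, 0, 0 and 0 in control mice. In MEP only Cxadr ko mice 1 and 4 had reads, 3.11 and 6.801, and the 4 control libraries, like Cxadr ko mice 2 and 3, were at 0. A count of 0 in a library allows up to 3 reads, and exact intervals and such limits cover counting error only.

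Epx (ENSMUSG00000052234) lies on chromosome 11 at 87864000 to 87875536 on the minus strand. In GMP it stood at 328, 101, 10.3 and 7.91 in Cxadr ko mice, against 296, 69.4, 132 and 264 in control mice. Cxadr ko mouse 1 was above the highest control library, and Cxadr ko mice 3 and 4 were below the lowest. In LSK the values were 2.81, 0, 7.65 and 1.03 in Cxadr ko mice and 0.822, 1.80, 0 and 0 in control mice. In CMP they were 4.61, 0, 0 and 0 in Cxadr ko mice and 4.89, 0, 0 and 0.931 in control mice. In MEP they were 5.18, 0, 0 and 0 in Cxadr ko mice and 0, 1.98, 2.03 and 0 in control mice, and outside GMP the groups overlapped in each gate.

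The 200 bases before the annotated starts of Prg3 and Epx are shown because both genes were high in the same gate. They are RefSeq sequences of GRCm38.p6, chr2:84988015-84988214 on the plus strand for Prg3 and chr11:87875537-87875736 on the minus strand for Epx, read 5′ to 3′, and no such sequence was held for Prg2. Capitals mark matches to GATAA, the core that GATA factors bind, on either strand.
Prg3: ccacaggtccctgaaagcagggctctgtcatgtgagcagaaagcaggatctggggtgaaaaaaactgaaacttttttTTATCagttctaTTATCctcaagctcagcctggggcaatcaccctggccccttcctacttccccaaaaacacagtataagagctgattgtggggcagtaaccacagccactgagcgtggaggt
Epx: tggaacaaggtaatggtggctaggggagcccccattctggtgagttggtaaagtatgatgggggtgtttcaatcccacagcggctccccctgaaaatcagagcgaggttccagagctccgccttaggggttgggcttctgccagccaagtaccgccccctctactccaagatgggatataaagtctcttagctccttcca
In the 250 bases before the start Prg3 held 2 matches to GATAA, 123 and 111 bases upstream, both as the reverse complement, and Epx held none. The same letters occurred on either strand in 22.6% of 32851 RefSeq windows of that length. The C/EBP half-site pair TTGCNNAA (9.56% of windows) and the PU.1 core GAGGAA (23.3% of windows) had no match in either of these windows. Those of Ear1 and Ear2 each held 1 match to TTGCNNAA. The Ear1 window lies before a RefSeq start inside the Ear1 gene span, near 43819640, and not at the annotated start, 43875517 on the minus strand. A match is a description of the letters and not a measured binding site.

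The ribonuclease genes were at the limit of detection. Ear1 (ENSMUSG00000072601, chromosome 14, 43818765 to 43875517, minus strand) had 56 reads over all 32 libraries, Ear2 (ENSMUSG00000072596, chromosome 14, 44102654 to 44103534, plus strand) had 96, and Ear6 (ENSMUSG00000062148, chromosome 14, 51853699 to 51854643, plus strand) had 67. By comparison Prg2 had 17591 reads, Prg3 2374 and Epx 1213. No Ear value exceeded 25.5 normalized counts.

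The ribonucleases are near copies of each other, as the first 120 coding bases of the 3 genes show. The transcripts are those of GENCODE M21, and capitals mark the 16 positions that are not identical in all 3.
Ear1: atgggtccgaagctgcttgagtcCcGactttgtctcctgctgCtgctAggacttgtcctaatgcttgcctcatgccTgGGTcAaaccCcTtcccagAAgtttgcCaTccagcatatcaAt
Ear2: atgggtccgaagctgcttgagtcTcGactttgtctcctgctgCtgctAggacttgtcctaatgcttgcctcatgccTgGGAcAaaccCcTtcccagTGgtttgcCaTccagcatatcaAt
Ear6: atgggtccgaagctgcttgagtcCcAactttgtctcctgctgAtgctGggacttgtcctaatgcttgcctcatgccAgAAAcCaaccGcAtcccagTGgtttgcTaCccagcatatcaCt
Over the whole coding sequence Ear1 and Ear2 were 95.1% identical, Ear1 and Ear6 87.3%, and Ear2 and Ear6 87.6%, while Prg2 and Prg3 were 63.1% identical. Ear2 was also 97.0% identical to Ear10, which was at 0 in all libraries. Of the 50-base words in the Ear1 transcripts 28.6% also occurred in another of the eosinophil-associated ribonuclease transcripts compared, and the shares were 37.6% for Ear2 and 0.954% for Ear6. Prg2, Prg3 and Epx shared none. Reads that fall in the shared stretches cannot be given to 1 gene, so the levels of Ear1 and Ear2 are uncertain. Ear1 also overlaps 4 annotated genes and Ear2 overlaps 1.

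In GMP, Ear1 stood at 4.12, 2.32, 0 and 15.8 in Cxadr ko mice and at 0, 0, 1.10 and 0 in control mice. Ear2 stood there at 0, 13.9, 5.13 and 10.5 in Cxadr ko mice and at 1.85, 1.85, 1.10 and 2.18 in control mice. Of the 4 Cxadr ko libraries 3 were above the highest control library for each of these genes. Ear6 stood at 8.24, 25.5, 0 and 0 in Cxadr ko mice and at 5.56, 2.77, 0 and 0 in control mice, and mice 3 and 4 of both genotypes had no read. In the other gates the highest values were 7.25 for Ear1, 13.5 for Ear2 and 13.8 for Ear6, all in Cxadr ko libraries. In MEP, Ear1 stood at 7.25, 0, 3.12 and 5.10 in Cxadr ko mice and was at 0 in the 4 control mice.

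**Figure D1:**
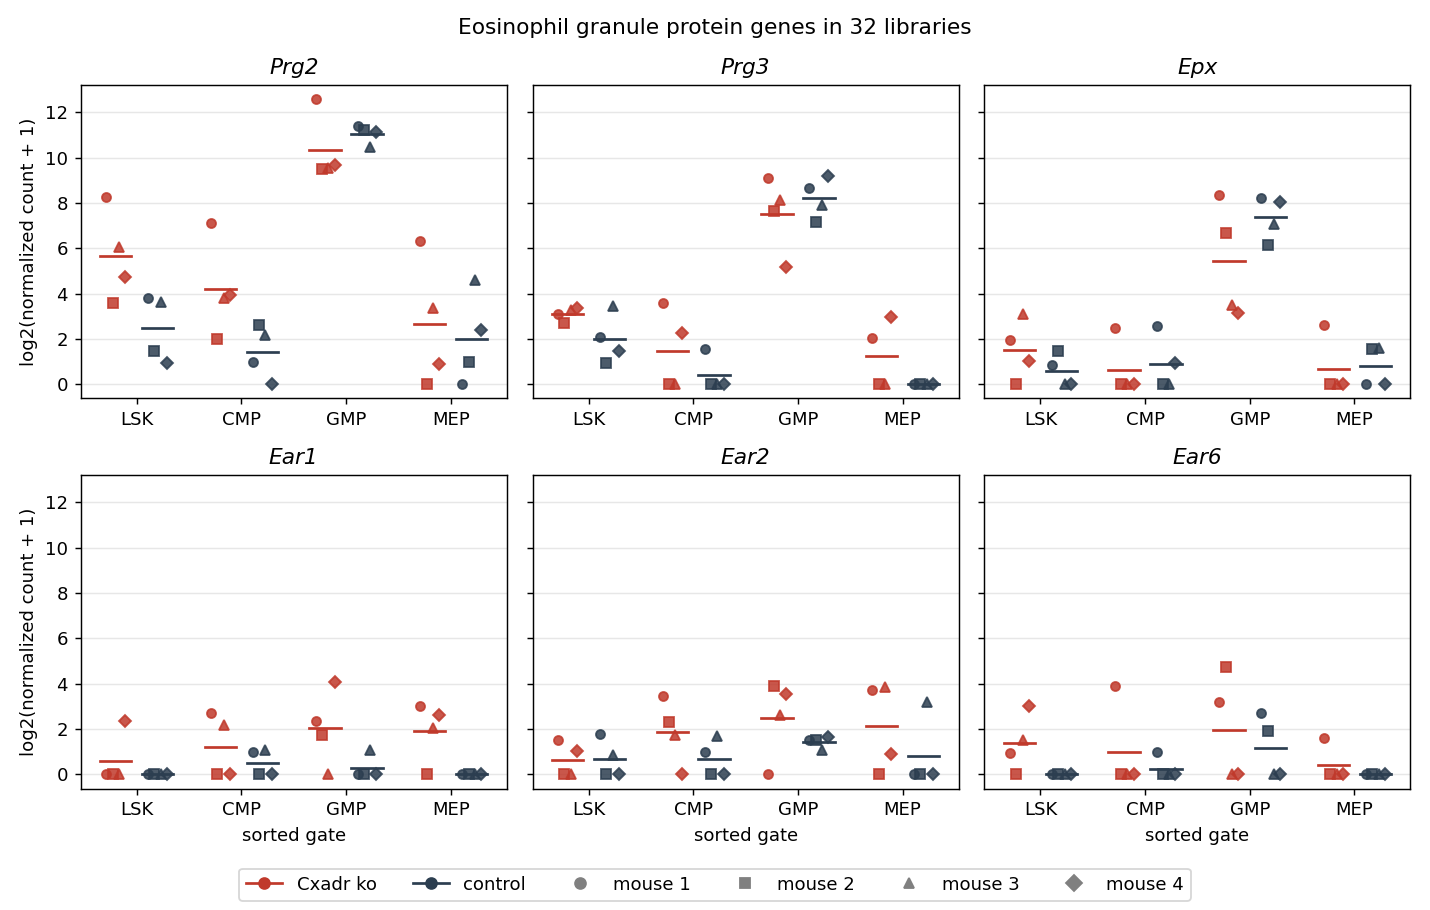
Each panel shows a gene, with the sorted gate on the x axis and log2(normalized count + 1) on the y axis; symbols are single libraries, shaped by mouse number, and bars are group means of 4 mice (Cxadr ko in red on the left of each gate, control in dark blue on the right). Prg2, Prg3 and Epx stand high in GMP in both genotypes, and the Ear genes stay at or below 25.5 normalized counts in every library.

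GMP was the gate of Prg2, Prg3 and Epx. It held 95.7% of all Prg2 reads, 96.7% of Prg3 reads and 97.1% of Epx reads, whereas it held 44.6% of Ear1 reads, 36.5% of Ear2 reads and 58.2% of Ear6 reads. Over all 8 mice Prg2 averaged 2133 ± 1783 normalized counts in GMP, against 53.9 ± 102 in LSK, 22.0 ± 46.5 in CMP, and 14.6 ± 26.7 in MEP (n = 8 mice, mean ± SD). The order of the 3 lower gates was not the same in both genotypes, since Prg2 averaged 41.7 in CMP and 22.0 in MEP of Cxadr ko mice, but 2.37 in CMP and 7.14 in MEP of control mice. Prg3 averaged 303 ± 192 in GMP, against 5.82 ± 3.49 in LSK, 2.11 ± 3.88 in CMP and 1.24 ± 2.50 in MEP. Epx averaged 151 ± 128 in GMP, against 1.76 ± 2.58 in LSK, 1.30 ± 2.15 in CMP and 1.15 ± 1.86 in MEP. The lowest GMP library of each of these genes was above its highest library of the other gates. For Prg2 these were 725 in GMP of Cxadr ko mouse 2 and 302 in LSK of Cxadr ko mouse 1. For Prg3 they were 35.2 in GMP of Cxadr ko mouse 4 and 11.1 in CMP of Cxadr ko mouse 1. For Epx the margin was narrow, 7.91 in GMP of Cxadr ko mouse 4 against 7.65 in LSK of Cxadr ko mouse 3. These are pools of sorted cells, in which fewer cells of a type and less RNA per cell cannot be told apart.

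The gates were compared with limma on log2(normalized count + 1) with the mouse as a block, and a gene was called when its p, adjusted by Benjamini and Hochberg, was under 0.05 over all genes that reached 10 normalized counts in at least 4 of the fitted libraries. Of the members 4 were tested, and Ear1 and Ear6 did not pass that filter. Against LSK, Prg2 was higher in GMP by 6.63 ± 0.66 (log2, SE, adjusted p = 3.30e-09), Prg3 by 5.33 ± 0.55 (adjusted p = 5.80e-09) and Epx by 5.34 ± 0.62 (adjusted p = 5.19e-08), as were 22.1% of the 18475 genes tested. Against CMP, the differences were 7.86 ± 0.66 for Prg2, 6.94 ± 0.55 for Prg3 and 5.64 ± 0.62 for Epx (limma, highest adjusted p = 1.20e-07), and 9.6% of genes were called higher. Against MEP, they were 8.37 ± 0.66, 7.24 ± 0.55 and 5.67 ± 0.62 in the same order of genes (limma, highest adjusted p = 1.05e-07), with 10.3% of genes called higher. Ear2 was not called in any of these, with differences of 1.33 ± 0.66 against LSK, 0.70 ± 0.66 against CMP and 0.52 ± 0.66 against MEP (limma, adjusted p = 0.0981, 0.514 and 0.642). On recovered reads Ear2 was called against LSK by edgeR (2.64, adjusted p = 0.0400) and by DESeq2 (2.87, adjusted p = 0.0316), from 35 reads in GMP and 7 in LSK. Prg3 and Epx passed the filter only through their GMP libraries, the gate in which they were high, so their calls and adjusted p-values are a description. The size of their differences also depends on the pseudocount, since many libraries of the other gates were at 0. That of Prg3 against MEP lay between 5.34 and 9.30 over the alternatives.

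**Figure D2:**
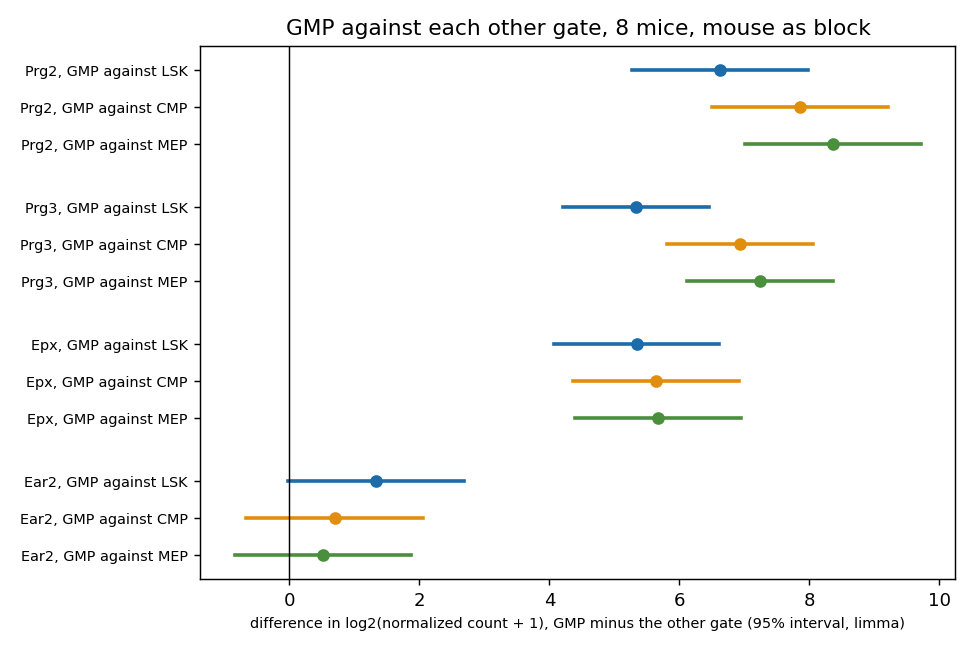
Differences in log2(normalized count + 1), GMP minus LSK (blue), CMP (orange) or MEP (green), with 95% intervals from limma over the 8 mice; points are estimates. The 9 intervals of Prg2, Prg3 and Epx lie above 0, from 4.07 upward, and the 3 intervals of Ear2 include 0. Prg3 and Epx passed the filter only through GMP, so their intervals are a description.

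Among the other gates, limma called both major basic protein genes lower in MEP than in LSK, and Prg3 also lower in CMP than in LSK, in calls that did not hold under all settings. The log2 difference, MEP minus LSK, was -1.74 ± 0.66 for Prg2 (limma, adjusted p = 0.0405) and -1.92 ± 0.55 for Prg3 (adjusted p = 0.00722), where 20.3% of all genes tested were lower. CMP minus LSK, it was -1.61 ± 0.55 for Prg3 (limma, adjusted p = 0.0252), where 16.3% of genes were lower, and Prg2 did not pass there (-1.23 ± 0.66, adjusted p = 0.165). Between MEP and CMP limma called 0 members, 0 of them at an unadjusted p under 0.05, and edgeR and DESeq2 called 0 as well, with 0.373% of all genes called. Epx was not called between any of the 3 gates (limma, adjusted p = 0.721, 0.764 and 0.991). These calls rest on few reads, 50 for Prg3 in LSK, 18 in CMP and 11 in MEP. Prg2 had 459 reads in LSK, 323 of them from Cxadr ko mouse 1. Its mean in MEP was 22.0 against 101 in LSK in Cxadr ko mice, but 7.14 against 6.81 in control mice. Without a filter on low values Prg2 was not called in MEP (limma, adjusted p = 0.0785), nor Prg3 in CMP (adjusted p = 0.0602). On recovered reads DESeq2 made the same 3 calls and edgeR made none of them. The call of Prg2 in MEP was lost without control mouse 1 or without any 1 of the Cxadr ko mice (limma, adjusted p between 0.0722 and 0.124), and that of Prg3 in CMP when control mouse 3, Cxadr ko mouse 2 or Cxadr ko mouse 3 was left out (limma, adjusted p between 0.0761 and 0.101).

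The same GMP difference was fitted within each genotype against the mean of the other 3 gates. In Cxadr ko mice Prg2 was higher by 6.16 ± 0.40 (log2, SE; limma, adjusted p = 3.45e-07) and Prg3 by 5.57 ± 0.71 (adjusted p = 9.80e-05), while 10.1% of all genes were called higher. In control mice Prg2 was higher by 9.08 ± 0.67 (limma, adjusted p = 1.86e-07), Prg3 by 7.44 ± 0.48 (adjusted p = 5.19e-08) and Epx by 6.61 ± 0.60 (adjusted p = 1.25e-06), while 14.3% were called higher. In control mice Prg3 and Epx were at 10 or more only in the 4 GMP libraries. Outside GMP, Prg2 in control mice reached 10 only in LSK (13.2 and 11.4) and MEP (23.3). Prg3 in Cxadr ko mice did so only in CMP (11.1). Without GMP none of these would have passed the filter, so they entered the test through the gate in which they were high. Their differences and adjusted p-values there are a description. Epx did not pass the filter in Cxadr ko mice, with 3 libraries at 10 or more, and without a filter it was higher by 4.49 ± 0.74 (adjusted p = 0.00112). Whether the genotype difference varied between gates was tested in 1 fit over 32 libraries. Prg2 gave an unadjusted p of 0.00290 in the limma F test and an adjusted p of 0.742, so it was not called, and neither were Prg3 (adjusted p = 0.896), Epx (0.879) and Ear2 (0.980). Ear2 passed the filter only through Cxadr ko libraries, so its adjusted p is a description. In that fit 0 of 18475 genes were called (0%), 1082 had an unadjusted p under 0.05, edgeR called 0 and DESeq2 called 16, none of them a member.

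Between the genotypes no member was called in any gate by limma, edgeR or DESeq2. In LSK Prg2 was the member tested, with 101 ± 136 normalized counts in Cxadr ko mice and 6.81 ± 6.36 in control mice (SD, n = 4 each), a log2 difference of 3.19 ± 0.97 (SE; limma, unadjusted p = 0.00757, adjusted p = 0.468) where 0.0433% of all genes were called. The 95% interval was 1.04 to 5.33, and without Cxadr ko mouse 1 the difference was 2.32 ± 0.83 (limma, adjusted p = 0.277). The reads behind it were 426 in Cxadr ko mice, 323 of them from mouse 1, and 33 in control mice. All 4 Cxadr ko libraries reached 10, but control libraries did so only at 13.2 and 11.4. Prg2 thus passed the filter through the group in which it was high. Its difference, interval and p-values in LSK are therefore a description. In the same LSK libraries the 11 mast cell and basophil genes summed to 874 to 1415 in Cxadr ko mice and 639 to 1004 in control mice, and the 9 late neutrophil genes to 784 to 3134 in Cxadr ko mice and 252 to 1938 in control mice. The 10 macrophage and dendritic cell genes summed there to 13376 to 56119 in Cxadr ko mice and 7717 to 29743 in control mice. The 10 B and plasma cell genes ranged most widely, from 3963 to 365918 in Cxadr ko mice and from 13812 to 919640 in control mice, with mouse 1 the highest in each genotype. The part of these lists in the Prg2 difference was not tested.

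In GMP the means of Prg2 were 2098 ± 2667 in Cxadr ko mice and 2169 ± 546 in control mice (SD, n = 4 each; exact permutation test, two-sided p = 1.0). On the log2 scale the difference was -0.72 ± 0.59 (SE; limma, adjusted p = 0.900), and limma called 3 of 15593 genes, 0.0192%. Cxadr ko mouse 1 decided this value, since without it the difference was -1.47 ± 0.20 (limma, unadjusted p = 2.57e-05, adjusted p = 0.0987), and without mouse 1 of both genotypes it was -1.35 (adjusted p = 0.201). On recovered reads edgeR gave -0.06 (adjusted p = 0.993), and DESeq2 gave no p for Prg2. Prg3 averaged 264 ± 211 in Cxadr ko mice and 342 ± 194 in control mice, a log2 difference of -0.72 ± 0.71 (limma, adjusted p = 0.910). Epx averaged 112 ± 150 in Cxadr ko mice and 190 ± 107 in control mice, a log2 difference of -1.94 ± 1.02 with a 95% interval of -4.20 to 0.31 (limma, adjusted p = 0.885). Without Cxadr ko mouse 1 the Epx difference was -2.92 ± 0.82 (limma, unadjusted p = 0.00516, adjusted p = 0.594). Of the 3 members tested in GMP, 0 had an unadjusted p under 0.05 in limma, edgeR or DESeq2.

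In CMP and MEP no member reached the filter, and limma called 0.0254% and 0.0253% of all genes there. Exact permutation tests on the normalized counts were made for all 6 members in the 4 gates, and with 4 mice a group none of them can give a p below 0.0286. The lowest p of these 24 tests was 0.0857, for Prg2 in LSK and in CMP, where the means were 41.7 ± 63.3 in Cxadr ko mice and 2.37 ± 2.31 in control mice. In the mean over the 4 gates the log2 differences were 1.47 ± 0.82 for Prg2, 0.68 ± 0.43 for Prg3, -0.35 ± 0.56 for Epx and 0.89 ± 0.44 for Ear2 (SE; limma, adjusted p between 0.642 and 0.899), and 0.0217% of all genes were called. Without Cxadr ko mouse 1 that of Prg2 was 0.52 ± 0.48. Ear2 reached 10 only in Cxadr ko libraries, where it was high, and no control library exceeded 8.10. It passed the filter through that group, so its difference and adjusted p in this mean are a description.

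**Figure D3:**
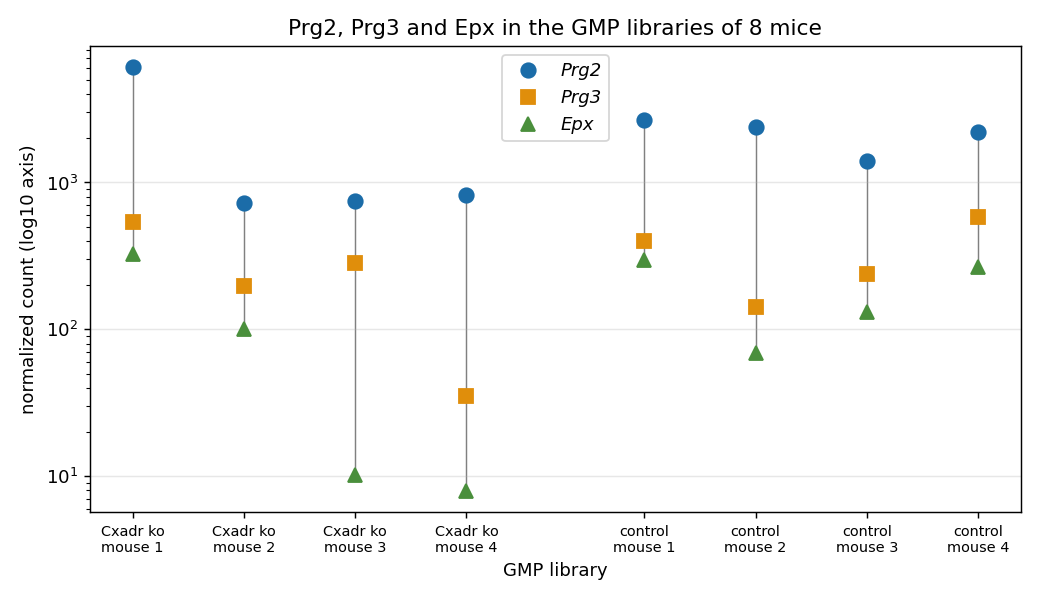
Normalized counts on a log10 axis of Prg2 (blue circles), Prg3 (orange squares) and Epx (green triangles) in the GMP library of each mouse, Cxadr ko mice 1 to 4 on the left and control mice 1 to 4 on the right; grey lines join the genes of a library. Prg2 is highest in all 8 libraries, and Epx lies near 10 in Cxadr ko mice 3 and 4 but at 69.4 or more in the other 6.

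The sums over gates showed more Ear reads in Cxadr ko mice, a comparison chosen after these values were seen. Summed over the 4 gates, Ear1 reached 16.9, 2.32, 6.68 and 25.03 normalized counts in Cxadr ko mice 1 to 4, against 0.979, 0, 2.24 and 0 in control mice 1 to 4. Ear2 reached 24.4, 17.9, 21.04 and 12.4 in Cxadr ko mice and 5.30, 1.85, 12.3 and 2.18 in control mice. All 4 Cxadr ko mice were above all 4 control mice for both genes, by a margin smaller than the worth of 1 read (exact permutation test, two-sided p = 0.0286 each, the smallest possible), as were 1.31% of the 42780 genes with a read. On counts scaled to the library total the exact p was 0.0571 for each. Ear6 overlapped, with 25.1, 25.5, 1.91 and 7.19 in Cxadr ko mice and 6.54, 2.77, 0 and 0 in control mice (exact permutation p = 0.114). In reads, Ear1 had 53 (exact Poisson 95% interval 39.7 to 69.3) in Cxadr ko mice and 3 (0.619 to 8.77) in control mice. Ear1 and Ear2 are also known from alveolar macrophages. The 10 macrophage and dendritic cell genes summed in GMP to 21454 to 38420 in Cxadr ko mice and 7661 to 22014 in control mice. Most of these sums came from Cd74, H2-Ab1 and H2-Aa. Of the list's other genes, C1qa was at 0 in every GMP library, and C1qb, C1qc and Siglec1 did not exceed 1.03 there. Vcam1 averaged 60.3 in GMP of Cxadr ko mice and 47.6 in GMP of control mice. The part of the 10 genes in the Ear values was not tested.

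Per length of transcript the order of the granule genes in GMP was the same in every mouse. Per kilobase of exon Prg2 reached 7277, 865, 891 and 980 normalized counts in Cxadr ko mice and 3185, 2850, 1669 and 2648 in control mice. Prg3 lay between 37.0 and 570 in Cxadr ko mice and between 150 and 617 in control mice, and Epx between 2.89 and 120 in Cxadr ko mice and between 25.3 and 108 in control mice. Prg2 was the highest in 8 of 8 libraries and Prg3 was above Epx in 8 of 8. The ratios between the genes varied. Epx amounted to 5.37, 13.9, 1.37 and 0.963% of the Prg2 count in Cxadr ko mice 1 to 4 and to 11.1, 2.90, 9.42 and 11.9% in control mice 1 to 4. Prg3 amounted to 8.87, 27.4, 37.6 and 4.28% of Prg2 in Cxadr ko mice and to 15.01, 5.96, 17.0 and 26.4% in control mice. The large Prg2 value of Cxadr ko mouse 1 came with the highest Epx value and the second highest Prg3 value of the 8 libraries.

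The members were also compared with each other over the 8 GMP libraries on the log2 scale, with 15 pairs computed and p-values not adjusted. Prg3 and Epx had a Pearson r of 0.76 (exact permutation p = 0.0230; Spearman rho 0.79, exact p = 0.0279), which fell to 0.46 when the 2 libraries farthest from the median Prg3 were left out, so the relation rests on these. Prg2 and Epx had an r of 0.75 (exact permutation p = 0.0343; rho 0.71, exact p = 0.0576), and 0.89 without the 2 farthest libraries. Prg2 and Prg3, the neighbours on chromosome 2, had an r of 0.58 (exact permutation p = 0.131; rho 0.48, exact p = 0.243), and 0.53 without the 2 farthest libraries. The correlation farthest from 0 was negative, between Prg2 and Ear2 (r -0.89, exact permutation p = 0.0032; rho -0.81, exact p = 0.0218; r -0.75 without the 2 farthest libraries), and rests on 35 Ear2 reads in the 8 libraries. The other 11 pairs had an r between -0.65 and 0.46.

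The share of Prg2 outside GMP also differed between mice. In Cxadr ko mouse 1 the Prg2 counts in LSK, CMP and MEP were 4.95, 2.24 and 1.27% of that mouse's GMP count. In the other 7 mice the shares were 0.0399 to 8.72% in LSK, 0 to 1.76% in CMP and 0 to 1.67% in MEP. By genotype, the LSK shares were 1.51 to 8.72% in Cxadr ko mice and 0.0399 to 0.815% in control mice. Those in CMP were 0.411 to 2.24% and 0 to 0.246%, and those in MEP 0 to 1.27% and 0 to 1.67%, in the same order. No test was made on these shares. The Prg2 share of Cxadr ko mouse 1 was above that of the other 7 mice in CMP and within their range in LSK and MEP. Of 11 other granulocyte genes whose shares were computed, that mouse was above the range of the other 7 for 4 and below it for 4 in CMP, and above for 1 and below for 2 in LSK and likewise in MEP. Those above in CMP were Cpa3 and the late neutrophil genes Ngp, Camp and S100a8, with Ngp at 956% against 90.1 to 426% in the other 7 mice. Prtn3, a neutrophil granule protease gene, was below in all 3 gates, in CMP with 28.0% against 33.0 to 49.9%. These genes were named after their values were seen.

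Of 11 eosinophil receptor and enzyme genes 9 were tested between GMP and the other gates, where 3 were higher and 1 lower in Cxadr ko mice and 4 were higher and 1 lower in control mice. Over all genes tested 10.1% were called higher and 11.9% lower in that comparison in Cxadr ko mice, and 14.3% higher and 16.9% lower in control mice, and the counts of this list and of those that follow are to be read beside these shares. The median log2 difference was 0.64 in Cxadr ko mice and 0.81 in control mice, beside -0.02 over all genes in each. Csf2rb, the shared beta chain of the IL-3, IL-5 and GM-CSF receptors, stood in GMP at 1235 ± 170 in Cxadr ko mice and 1255 ± 147 in control mice (SD, n = 4 each), and was higher than in the other gates by 0.64 ± 0.07 and 0.81 ± 0.08 (log2, SE). Csf2ra, the GM-CSF receptor alpha chain, stood at 995 ± 117 in Cxadr ko mice and 858 ± 291 in control mice. Siglecf, a surface lectin of mature mouse eosinophils, stood at 177 ± 58.7 in Cxadr ko mice and 120 ± 15.3 in control mice (log2 difference 0.51 ± 0.24, limma, adjusted p = 0.87), and Csf2rb2 at 120 ± 39.7 and 115 ± 51.0.

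The receptors that mark the lineage itself were scarce. Il5ra, the IL-5 receptor alpha chain, stood in GMP at 21.6, 12.8, 2.56 and 22.0 in Cxadr ko mice and at 16.7, 19.4, 16.5 and 3.27 in control mice, and it was not called between GMP and the other gates in either genotype. Ccr3, the eotaxin receptor, stood at 0, 30.1, 7.69 and 0 in Cxadr ko mice and was at 0 in the 4 control mice. Both were named after their values were seen.

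Of 13 regulators of the eosinophil lineage all were tested, and 5 were higher and 1 lower in GMP of Cxadr ko mice, while 6 were higher and 3 lower in GMP of control mice. Their median log2 difference was 0.26 in Cxadr ko mice and 0.37 in control mice. Xbp1, which eosinophil differentiation needs in mice, had the highest normalized count of them in GMP, 4436 ± 428 in Cxadr ko mice and 4037 ± 408 in control mice, and was higher than in the other gates by 0.54 ± 0.10 and 0.37 ± 0.13. Irf8 stood at 2909 ± 687 in Cxadr ko mice and 2535 ± 766 in control mice, and Spi1, which encodes PU.1, at 1109 ± 200 and 886 ± 208. Id2 stood at 1181 ± 303 in Cxadr ko mice and 507 ± 138 in control mice, a log2 difference of 1.23 ± 0.23 that did not pass limma's adjustment (adjusted p = 0.64). Cebpe, which granulocytes need for late granule genes, was higher in GMP by 4.94 ± 0.66 in Cxadr ko mice and 4.72 ± 0.51 in control mice, whereas Gata1, a factor that eosinophils cannot form without, was not called (0.26 ± 0.21 and -0.04 ± 0.27). Cebpe and Gata1 were named after their values were seen.

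Of 26 symbols listed for other RNase A family genes 17 were in the table, and Ear10, Ear14, Ang5 and Ang6 were at 0 in all 32 libraries. Rnase12 had the highest normalized count of them in GMP, 549 ± 134 in Cxadr ko mice and 321 ± 79.0 in control mice, and was higher there than in the other gates by 5.13 ± 0.64 and 3.94 ± 0.30. Rnase6 stood in GMP at 362 ± 54.1 in Cxadr ko mice and 176 ± 49.5 in control mice (log2 difference 1.07 ± 0.21, limma, adjusted p = 0.87). Rnase4 stood at 74.8 ± 19.3 in Cxadr ko mice and 46.6 ± 25.4 in control mice, and Ang at 30.4 ± 9.87 and 27.1 ± 10.99. Of this list 2 of 4 tested genes were higher in GMP of Cxadr ko mice, and 1 of 5 was higher and 1 lower in GMP of control mice.

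Genes of neighbouring granulocyte lineages were measured in the same GMP libraries. Of the 11 mast cell and basophil genes 7 were tested, and 6 of 7 were higher in GMP of Cxadr ko mice and 7 of 7 in GMP of control mice. Those not tested were the mast cell protease genes Tpsb2, Tpsab1, Cma1 and Mcpt4. They did not exceed 6.49 in any GMP library, apart from Tpsab1 with 35.2 in Cxadr ko mouse 4. Cpa3, mast cell carboxypeptidase, stood at 9522 ± 2633 in Cxadr ko mice and 7755 ± 1270 in control mice, and Hdc, histidine decarboxylase, at 2528 ± 833 and 1969 ± 133. The basophil proteases Prss34 and Mcpt8 had their highest values in mouse 1 of each genotype, Prss34 with 9134 in Cxadr ko mouse 1 and 6886 in control mouse 1, against 850 to 3582 in Cxadr ko mice 2 to 4 and 810 to 1023 in control mice 2 to 4. Of the 7 neutrophil primary granule genes 6 were higher in GMP of each genotype. Of the late neutrophil genes 1 of 9 was higher in Cxadr ko mice and 2 of 9 in control mice, and of the erythroid genes 2 of 10 were higher and 3 lower in Cxadr ko mice and 1 of 11 higher and 5 lower in control mice. Stem and multipotent progenitor genes were lower in 9 of 10 and 10 of 10, T and NK cell genes were higher in 1 and lower in 3 of 6 in each genotype, B and plasma cell genes were not called, and macrophage and dendritic cell genes were higher in 1 of 6 in Cxadr ko mice and higher in 1 and lower in 1 of 6 in control mice. Between the genotypes limma called 0 genes of these lists in any gate.

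Over the 32 libraries the genes whose level was most like the mean log2 level of the 6 members were Slc36a2 (Pearson r 0.89), an amino acid transporter gene, Ly6c1 (0.88), a surface antigen of myeloid progenitors and monocytes, and Ifngr1 (0.85), a chain of the interferon gamma receptor, out of 18471 compared. Acsl1, Gstm3, Gstm1, Gm36079, Svip, Gstm2-ps1 and App followed, with an r between 0.82 and 0.84. Slc36a2 averaged 45.1 in GMP, against 0.335 in LSK, 1.09 in CMP and 2.32 in MEP. Ly6c1 averaged 794 in GMP and 62.4, 66.4 and 70.2 in LSK, CMP and MEP. Within the 8 GMP libraries the mean followed Ear6 (r 0.83) and Epx (0.80) more than Prg2 (0.58). There the most alike of 15590 genes were Gins1 (r 0.96), Slc35b1 (0.95), Ssrp1 (0.95), Gm9531 (0.94) and Fkbp11 (0.94). None of the genes named over 32 libraries was among the 10 most alike within GMP. These correlations describe libraries that share mice and gates, and no test was made on them.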

How the data were processed

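RNA was sequenced from sorted LSK, CMP, GMP and MEP bone marrow cells of 4 Cxadr ko and 4 control mice, 1 library per mouse and gate. Per the labels' protocols, the sort was into TRIzol, and a NEBNext low-input kit was used. The submitters' processing notes name STAR and DESeq2, with GRCm38 and mm10 as builds, and the sources used here give no counting tool. Gene models matched GENCODE M21 for 99.5% of gene IDs.

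The deposited signal values were normalized counts, which is to say that the authors scaled the gene counts of a library by its size factor. Every value above 0 (100% of 765992) was a whole number of reads to within 0.001, so reads were recovered, 8313300 to 13641248 per library. No column was left unmapped. Within groups every pair of libraries differed beyond counting noise, with a chi-square of 6.76 to 107 per degree of freedom in 48 pairs, so no library was counted as a repeat of another.

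The fits over all genes used limma 3.58.1 with a mean-variance trend (R 4.3.3, two-sided tests) on log2(normalized count + 1), with genes of at least 10 in at least 4 fitted libraries and Benjamini-Hochberg adjustment over all of them. Gates were compared with the mouse as a block, because the gates of a mouse come from the same animal. Genotypes were compared without a block, since the same number stands for different mice. Single values were compared with exact permutation tests. The fits were tested on simulated data. Alternatives were pseudocounts of 0.5 and 5, no filter, TMM scaling, edgeR 4.0.16 and DESeq2 1.42.0 on recovered reads (between genotypes edgeR called 6 genes in the LSK gate, 3 in GMP, and 4 each in CMP and MEP), the mouse block added or removed, leaving out each mouse, and leaving out mouse 1 of both genotypes.

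Named genes are the members and come otherwise from a rule: of each gene list, genes called between genotypes, up to 4 genes with the highest GMP mean and those at 0 in all libraries, plus the 10 genes most alike the members. The members and lists were chosen with earlier results of these data known. Coding sequences came from GENCODE M21, and the promoters came from RefSeq, which held 5 of the 6 members. Exceptions are marked where they occur. The p-values of comparisons between the genotypes, in a gate or in the mean over gates, rest on the spread between mice. Those of the gate comparisons, fitted with the mouse as a block, rest on the spread left within mice. The p-values of the member pairs come from permuting values over the GMP libraries.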

Additional observations from a re-analysis of the deposited data

Results flagged for a closer look

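In 12 of 43 groups of 4 libraries 1 library stood far from the other 3. The rule was applied to normalized counts and not to their log2 values. Chance alone gives about 1 in 20 for values with a normal spread, which was not tested for the Prg2 counts. That rate does not apply to 9 of the 12, in which the other 3 libraries were at 0 and a single read is enough. Prg2 in Cxadr ko mouse 1 was such a library in GMP (6098), in CMP (136) and in MEP (77.6). Epx in CMP (4.61) and MEP (5.18) and Ear6 in CMP (13.8) and MEP (2.07) of the same mouse stood against 3 libraries at 0, as did Ear1 in LSK of Cxadr ko mouse 4 (4.11). In control mice the lone libraries were Prg3 in CMP of mouse 1 (1.96), Ear1 in GMP of mouse 3 (1.10), Ear2 in MEP of mouse 3 (8.10) and Ear6 in CMP of mouse 1 (0.979), each against 3 libraries at 0. Of the 12 lone libraries 7 were from Cxadr ko mouse 1, and all but those of Prg2 held few reads.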

How the results depend on the processing

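No member was called between the genotypes under any alternative. Prg2, Prg3 and Epx were called higher in GMP than in LSK, CMP and MEP under all of them, and edgeR and DESeq2 added Ear2 against LSK. Where the filter was used, the calls of Prg3 and Epx are a description, since both passed it only through GMP. Within Cxadr ko mice leaving out a mouse gave 1 to 2 called members and within control mice 1, because with 3 GMP libraries a gene high only in GMP cannot reach the filter of 4 libraries. The 2 members lower in MEP than in LSK became 1 with a pseudocount of 5, with no filter, without the mouse block or without mouse 1 of both genotypes, 0 with edgeR, and 1 to 2 when a mouse was left out. The 1 member lower in CMP than in LSK became 0 with a pseudocount of 5, with no filter or with edgeR, and 0 to 1 when a mouse was left out.

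The labels state no pairing of the numbers 1 to 4 between the 2 genotypes. Deviations of same-numbered mice correlated at -0.0795 to 0.512, above 0.1 in 4 of 16 pairs, each time mouse 1. Cxadr ko mouse 1 was most like control mouse 1 in every gate, and 8 of 16 Cxadr ko libraries were most like their own number. Whether the numbers pair the mice in part could not be decided. With the number as a replicate block 0 members were called in each genotype comparison. Without the mouse block the gate comparisons kept their member counts, except the 1 given above.

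The genotype difference of Prg3 in GMP reversed to 0.058 without Cxadr ko mouse 4 (-1.24 to 0.058 over the mice left out). Over the gates limma gave 0.68 for Prg3, from each mouse's mean of log2 values. For edgeR (-0.31) and DESeq2 (-0.32) the reads of the 4 gates were summed instead. GMP held 96.7% of Prg3 reads, so these values follow GMP and are not the same measure. Differences near 0 between the other gates also reversed, for Epx in MEP against CMP to 0.056 with DESeq2, to 0.37 without mouse 1 of both genotypes and to -0.26 to 0.34 when a mouse was left out, for Prg3 there to 0.11 without mouse 1 of both genotypes, for Ear2 there to -0.096 to 0.54 when a mouse was left out, and for Epx against LSK to -0.60 to 0.072 in MEP and -0.59 to 0.0999 in CMP when a mouse was left out. Leaving out a mouse gave an r of 0.68 to 0.86 for Prg2 and Epx, 0.53 to 0.99 for Prg3 and Epx, 0.47 to 0.68 for Prg2 and Prg3 and -0.96 to -0.81 for Prg2 and Ear2. The differences of the sums over gates were 7.82 to 15.4 for Ear1 and 11.7 to 15.8 for Ear2 when a mouse was left out. Taken from the genotype means, r was 0.70 for Prg2 and Epx and 0.74 for Prg3 and Epx. Over all genes DESeq2 called more than limma between the genotypes. It called 93 against 7 in LSK, 39 against 4 in CMP, 12 against 3 in GMP and 23 against 4 in MEP. On reads summed over the gates it called 77, against 4 for limma in the mean over gates. Between MEP and CMP it called 348 against 69. The causes were not tested. Depth limits the Ear genes in all gates, and Prg3 and Epx outside GMP.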
